A study of Mus musculus with 6 samples.

Results

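Cycling macrophages of mammary tumours are the tumour macrophages whose RNA shows that they are in the cell division cycle. They were picked cell by cell from their raw counts of unique molecular identifiers (UMIs, one tag per captured RNA molecule). Barcodes needed 200 genes or more, with no more than 15% of UMIs from mitochondrial genes. Such a barcode counted as a macrophage when C1qa, C1qb and C1qc held at least 1% of its UMIs and the T cell receptor genes Cd3d, Cd3e and Cd3g held 0 UMIs. It counted as a cycling macrophage when Mki67 and Top2a together held at least 3 UMIs. By this rule 2042 cells were members, out of 19009 macrophages and 40418 barcodes that passed the gene and mitochondrial filter. Since these genes chose the members, their levels are given as a description and were not tested.

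Tumour macrophages come from blood monocytes that mature in the tissue and from macrophages that settled there earlier and can renew themselves by division, mainly under the growth factor receptor Csf1r. C1q, the starter of the classical complement cascade, is made by mature macrophages, so it sets them apart from fresh monocytes and neutrophils. Mki67 coats the chromosomes of dividing cells and Top2a untangles their DNA. Both are made from S phase through mitosis and are scarce in resting cells. Cells copy their DNA in S phase with genes switched on by E2F factors, and they divide with genes switched on later by the MuvB complex with B-Myb and FoxM1.

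The study combined loss and presence of Mtdh, a scaffold protein that binds Snd1, in the host and in marrow-derived cells, to ask how the host's Mtdh bears on antitumour immunity. Female mice were injected with Py8119 cells, a mouse mammary tumour line, live CD45+ cells were sorted from the tumours, and 15000 cells per library were loaded on a droplet system that tags the 3' end of RNA. Each of the 6 groups holds 1 library, and how many mice stand behind a library is not stated. Intact KO and intact WT mice received no marrow and so had 1 genotype in host and marrow. The other 4 groups were irradiated hosts given donor marrow 8 weeks before the tumour cells were injected: KO marrow in KO hosts, KO marrow in WT hosts, WT marrow in KO hosts and WT marrow in WT hosts. They are written here with the marrow first, as KO-to-KO, KO-to-WT, WT-to-KO and WT-to-WT. All tumours, in intact mice too, were taken 4 weeks after injection. The Py8119 tumour cells were the same line in every group, and the labels do not say how the KO allele was made or how many host immune cells outlived the irradiation. The intact libraries also differ from the 4 transplanted ones in the version of the counting software, so those 2 differences cannot be told apart.

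The libraries held between 85616443 and 142779550 UMIs. Cycling macrophages were deeper than other macrophages: the median cell held between 21068 and 31961 UMIs in the 6 libraries, and the median macrophage with 0 UMIs of Mki67 and Top2a, called non-cycling below, held between 13101 and 18665. Between 8 and 25 cell barcodes occurred in both libraries of a pair, 217 barcodes occurred in more than 1 library, 16 members carried such a barcode, and 0 barcodes were shared between members of different libraries. Among barcodes gated as neutrophils, whose mature form does not divide, at least 3 UMIs of Mki67 and Top2a were held by 3 of 41 in intact KO (7.32%), 3 of 68 in intact WT (4.41%) and 0% to 1.04% in the 4 transplanted libraries. Their median depth was 1994 to 3212 UMIs per cell, far below that of the members, so this share is not a measure of free RNA at the members' depth, and the part of free RNA in the members' counts was not tested. In cycling macrophages Mtdh went with the genotype of the marrow (ENSMUSG00000022255, chromosome 15 of mm10, 34082694 to 34145624, plus strand). Its level was 15.4 counts in 1e6 UMIs (CPM, here after scaling by TMM factors) in intact KO, 15.6 in KO-to-KO, 20.4 in KO-to-WT, 118 in WT-to-KO, 120.3 in WT-to-WT and 103 in intact WT. The 3 libraries with KO marrow therefore lay far below the other 3, which did not overlap with them.

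The members carried the macrophage genes that the rule had not used. In cycling macrophages Csf1r stood between 558 and 804 CPM over the 6 libraries, Adgre1, which encodes the F4/80 antigen, between 193 and 319, and Cd68 between 361 and 492. Csf1r was close to its level in non-cycling macrophages, where it stood between 601 and 813 CPM. Of the genes of the rule, Mki67 (mm10 chromosome 7, 135689784 to 135716361, minus strand) ranged from 368 to 507 CPM and Top2a (chromosome 11, 98992943 to 99024189, minus strand) from 356 to 539. C1qa (chromosome 4, 136895917 to 136898803, minus strand) ranged from 4799 to 5837 CPM in cycling and from 5491 to 6825 in non-cycling macrophages. The levels of these 3 genes were fixed by the choice of cells, so the macrophage label rests here on Csf1r, Adgre1 and Cd68, and division genes outside the rule are described further on.

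Members were found both just above the threshold and far above it. Among the 19009 macrophages, 12336 held 0 UMIs of Mki67 and Top2a, 3493 held 1 and 1138 held 2. Among the members, 463 held 3 UMIs, 225 held 4, 117 held 5, and the counts thinned to 38 cells at 8 UMIs and 38 at 9. The largest group of members, 1022 cells, held 10 UMIs or more. Cells just inside the threshold, with 3 UMIs, had a median of 21495 UMIs, and cells just outside it, with 2, had 20928. Around the C1q limit, 133 of 1208 cells with a share of 1.0% to 1.1% were cycling (11%), and 145 of 1032 cells at 0.9% to 1.0% would have been (14.1%). So neither limit fell at a natural break in the numbers of cells.

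Cycling macrophages made up between 5.67% and 15.9% of all macrophages. In intact KO tumours 348 of 2557 macrophages were cycling (13.6%, exact binomial 95% interval 12.3 to 15.0), and in intact WT tumours 708 of 4464 were (15.9%, 14.8 to 17.0). In the transplanted mice the share was 9.78% in KO-to-KO (248 of 2536, 8.65 to 11), 5.67% in KO-to-WT (165 of 2911, 4.86 to 6.57), 8.75% in WT-to-KO (316 of 3611, 7.85 to 9.72) and 8.77% in WT-to-WT (257 of 2930, 7.77 to 9.85). Both intact libraries lay above all 4 transplanted ones, and KO-to-WT was the lowest. The intervals cover counting error only. Since members must reach a fixed number of UMIs, each cell was also thinned to 5000 UMIs, which left out between 28 and 231 macrophages per library. The thinned share was 6.60% in intact KO, 5.25% in KO-to-KO, 2.48% in KO-to-WT, 3.49% in WT-to-KO, 3.76% in WT-to-WT and 7.84% in intact WT. The intact libraries stayed on top and KO-to-WT stayed at the bottom after thinning.

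**Figure D1:**
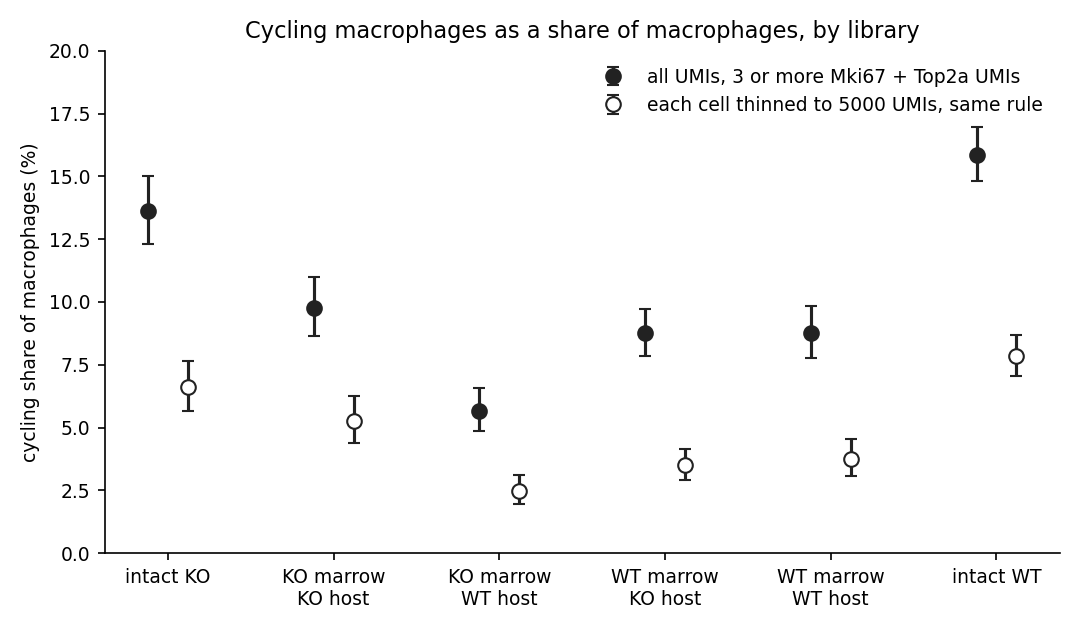
Cycling macrophages as a percent of all macrophages in each of the 6 libraries, with KO groups left of WT groups; bars show exact binomial 95% intervals and the second set of points shows cells thinned to 5000 UMIs. The shares run between 5.67% in KO-to-WT and 15.9% in intact WT, and both intact libraries stand above the 4 transplanted ones.

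No difference of the cycling share with the host or the marrow genotype passed the test. KO over WT host gave log2 ratios of -0.22 in the intact pair, 0.79 under KO marrow and -0.003 under WT marrow, a mean of 0.19 (two-sided exact permutation test over 6 libraries, p = 0.9). KO over WT marrow gave -0.22 in the intact pair, 0.16 in KO hosts and -0.63 in WT hosts, a mean of -0.23 (exact permutation p = 0.7). In each of these comparisons the 3 pairs pointed in both directions. With a C1q share of at least 2% in place of 1%, all 3 host pairs were above 0, at 0.14 in the intact pair, 1.58 under KO marrow and 0.64 under WT marrow, a mean of 0.79 (exact permutation p = 0.3). With 3 libraries against 3, the exact permutation test cannot go below p = 0.1. It permuted the 6 libraries freely, with no block for transplantation. The gap between intact and transplanted shares therefore enters the spread it measures against. The intact pair differs in host and marrow together, and it enters both means. Without the KO-to-WT library the host mean was -0.16 and the marrow mean 0.11, and without intact WT the host mean was 0.58 and the marrow mean 0.06.

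Members held RNA of both S phase and mitosis genes. Mki67 and Top2a are scarce early in the cycle, so cells in G1 are not sampled by the rule. After thinning to 5000 UMIs, a cell was scored by its UMIs from a list of 34 genes of DNA replication and S phase and from a list of 41 genes of mitosis. At least 3 UMIs of both lists were found in 60.7% of cycling cells of intact KO, 66.7% of KO-to-KO, 47.9% of KO-to-WT, 45.6% of WT-to-KO, 50.8% of WT-to-WT and 60.2% of intact WT. Non-cycling macrophages reached this in 3.91% to 5.12% of cells. Intact KO, KO-to-KO and intact WT thus had higher shares than the other 3 libraries. This order was read from the shares themselves, and it follows neither the host, the marrow nor transplantation. Members were called on all of their UMIs before thinning, so membership was not set at equal depth. The part of members near the threshold in this order was not tested. Among cycling cells, 9.58% to 16.4% held at least 3 UMIs of the S phase list alone and 11% to 16.1% of the mitosis list alone. Cells with more S phase than mitosis UMIs made up 41.0% to 49.1% of the members, and cells with more mitosis UMIs 43.6% to 54.3%.

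The median number of UMIs per thinned cell differed by library as well. For the S phase list it was 7 in intact KO, 8.5 in KO-to-KO, 4 in KO-to-WT, 4 in WT-to-KO, 5 in WT-to-WT and 7 in intact WT. For the mitosis list it was 11 in intact KO, 11 in KO-to-KO, 4 in KO-to-WT, 5 in WT-to-KO, 5 in WT-to-WT and 9 in intact WT. Members without 3 UMIs of either list were fewest in intact WT, at 11.4%, and made up 14.7% in intact KO, 11.7% in KO-to-KO, 23% in KO-to-WT, 22.5% in WT-to-KO and 22.7% in WT-to-WT. Non-cycling macrophages lacked both in 60.2% to 66.1% of cells.

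**Figure D2:**
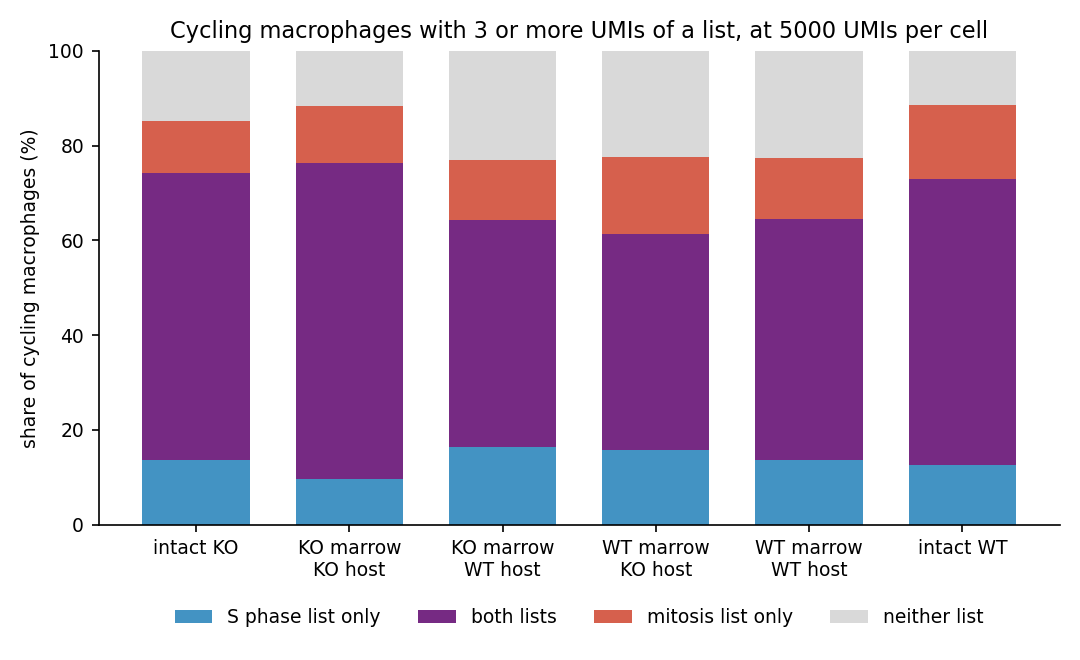
Stacked bars give the percent of cycling macrophages with at least 3 UMIs of the S phase list alone, of both lists, of the mitosis list alone or of neither, per library, after thinning each cell to 5000 UMIs. Cells with both lists make up 45.6% to 66.7% of the members, and cells with neither 11.4% to 23%.

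The genes of division stood higher in the members than in non-cycling macrophages in all libraries, as the choice of the cells implies, and this is described with no test. Of the 12741 genes with at least 100 UMIs, 17.9% were higher in cycling macrophages in 6 of 6 libraries and 23.8% were lower in 6 of 6. All 41 mitosis genes, all 34 S phase genes and all 15 DNA repair genes were higher in 6 of 6, as were 20 of 21 genes of histones and chromatin. The median log2 difference in a library lay between 2.23 and 2.54 for mitosis genes, between 1.48 and 1.61 for S phase genes and between 0.81 and 1.13 for repair genes. Log2 differences between cycling and non-cycling cells are on the scale of log2 CPM with 10 CPM added, which understates the change of low genes.

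Pclaf, which binds the sliding clamp Pcna at replication forks, was among the genes outside these lists whose smallest difference over the 6 libraries was largest. Its level in cycling macrophages was 258 CPM in intact KO, 291 in KO-to-KO, 199.7 in KO-to-WT, 216 in WT-to-KO, 239 in WT-to-WT and 242 in intact WT, against 1.80 to 4.42 CPM in non-cycling ones. Its log2 difference was between 4.13 and 4.4 in the 6 libraries. Birc5, the survivin subunit of the chromosomal passenger complex, stood between 170.1 and 272 CPM in cycling and between 3.57 and 7.57 in non-cycling macrophages. Cdk1, the kinase that drives cells into mitosis, had 86.2 CPM in intact KO, 122 in KO-to-KO, 86.7 in KO-to-WT, 94.2 in WT-to-KO, 102 in WT-to-WT and 101 in intact WT, against 6.08 to 8.64 in non-cycling cells. Levels of these genes overlapped between KO and WT libraries while cycling and non-cycling cells stayed apart in every one of the 6.

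Replication and chromatin genes ran alongside. Rrm2, the subunit of ribonucleotide reductase that limits supply of DNA building blocks, stood between 54.4 and 69.7 CPM in cycling and between 0.774 and 1.53 in non-cycling macrophages. Mcm6, part of the helicase that opens DNA, stood between 77.4 and 117 CPM, against 16.6 to 24.9. The linker histone gene Hist1h1b stood between 427 and 516 CPM, against 3.75 to 12.3. Replication-dependent histone RNA carries no poly(A) tail in the main, so its level in a poly(A)-primed library is not comparable with that of other genes. Further genes outside the lists whose smallest difference was large were Smc2 and Ncapg, subunits of condensin, Spc24, a kinetochore protein, and the mitotic kinesin Kif15. Diaph3, an actin nucleator of the contractile ring, was high in intact KO, at 125 CPM, and in intact WT, at 119.7, and stood between 37.9 and 45.2 in the transplanted libraries.

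The promoters of 5 of these genes are shown because they carry the letters of the binding sites known for the factors that drive them. They are the 250 bases before the RefSeq start of the gene in GRCm38.p6, written 5′ to 3′ on the strand of the gene. Capitals mark a CCAAT box (CCAAT) as bound by NF-Y, a cell cycle homology region, CHR (TTTGAA or TTCGAA), as bound by MuvB, and an E2F-type site (TTTCCCGC, TTTGGCGC, TTCCCGCC or TTGGCGGG), each on either strand. Mki67 lies at chr7:135716380-135716629 (minus strand, 3 CCAAT and 2 CHR), Top2a at chr11:99024190-99024439 (minus strand, 6 CCAAT and 4 CHR) and Cdk1 at chr10:69352913-69353162 (minus strand, 3 CCAAT and 2 CHR). Mcm6 lies at chr1:128359706-128359955 (minus strand, 2 CCAAT and 2 E2F-type) and H2-Eb1, an MHC class II gene described below, at chr17:34305617-34305866 (plus strand, 2 CCAAT).
Mki67: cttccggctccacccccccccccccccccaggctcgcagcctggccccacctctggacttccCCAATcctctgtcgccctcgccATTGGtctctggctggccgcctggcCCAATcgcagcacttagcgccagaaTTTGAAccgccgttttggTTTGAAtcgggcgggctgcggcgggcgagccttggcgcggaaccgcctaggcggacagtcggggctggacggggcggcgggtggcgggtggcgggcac
Top2a: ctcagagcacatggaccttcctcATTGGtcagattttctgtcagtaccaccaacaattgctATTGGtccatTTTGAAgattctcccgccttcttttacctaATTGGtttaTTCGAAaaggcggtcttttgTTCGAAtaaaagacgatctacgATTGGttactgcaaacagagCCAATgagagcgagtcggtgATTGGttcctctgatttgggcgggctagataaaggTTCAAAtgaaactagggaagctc
Cdk1: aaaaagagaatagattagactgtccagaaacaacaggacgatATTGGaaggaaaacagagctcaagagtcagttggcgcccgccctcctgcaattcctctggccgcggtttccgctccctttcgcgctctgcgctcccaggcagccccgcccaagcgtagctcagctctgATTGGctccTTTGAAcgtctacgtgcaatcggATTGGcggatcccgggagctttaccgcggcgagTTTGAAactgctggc
Mcm6: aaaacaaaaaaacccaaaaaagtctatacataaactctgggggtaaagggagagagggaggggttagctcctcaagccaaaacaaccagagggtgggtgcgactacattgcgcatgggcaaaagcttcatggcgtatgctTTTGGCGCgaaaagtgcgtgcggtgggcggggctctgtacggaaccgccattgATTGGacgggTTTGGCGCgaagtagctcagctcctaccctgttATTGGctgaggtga
H2-Eb1: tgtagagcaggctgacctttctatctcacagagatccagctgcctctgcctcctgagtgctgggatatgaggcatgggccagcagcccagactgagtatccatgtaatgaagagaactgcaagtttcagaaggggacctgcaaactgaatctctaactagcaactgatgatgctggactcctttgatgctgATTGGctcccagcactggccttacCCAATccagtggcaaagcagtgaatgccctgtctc
Of the 41 mitosis genes 34 were matched to a RefSeq promoter, of the 34 S phase genes 26 and of the 8 MHC class II genes 5. A CCAAT box was found in 26 of 34 mitosis promoters (76.5%), 15 of 26 S phase promoters (57.7%) and 5 of 5 MHC class II promoters, against 37.5% of all 27025 promoters. The CHR letters were found in 11 of 34 mitosis promoters (32.4%) and 4 of 26 S phase promoters (15.4%), against 19.6% of all. The E2F-type letters were found in 0 of 34 mitosis promoters and 11 of 26 S phase promoters (42.3%), against 3.88% of all. A match says only that the letters are there.

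Cyclins and brakes of the cycle were less uniform. Of 25 genes of cyclins, E2F factors and inhibitors, 14 were higher in cycling macrophages in 6 of 6 libraries and 3 were lower. Ccna2, the cyclin of S and G2 phase, stood between 57.8 and 79.4 CPM in cycling and between 0.729 and 1.74 in non-cycling macrophages. Cyclin D1, which starts the cycle in response to growth factors, differed little: Ccnd1 stood between 129 and 218 CPM in cycling and between 103 and 218 in non-cycling cells. Of the inhibitors, Cdkn2c (p18) was higher in cycling cells, at 38.1 to 58.6 CPM against 8.16 to 13.7, as was Cdkn2d (p19), at 58.7 to 76.4 against 14.9 to 30.6. Both are themselves known E2F targets. Cdkn1a, which encodes p21 and arrests cells after DNA damage, was slightly lower in cycling cells in 6 of 6 libraries, and its level varied by library. In cycling cells its level was 757 CPM in intact KO, 873 in KO-to-KO, 666 in KO-to-WT, 607 in WT-to-KO, 678 in WT-to-WT and 202 in intact WT. Intact WT was far below the others, in non-cycling cells too, where it stood at 259 CPM against 739 to 938 in the other 5 libraries.

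Nucleotide synthesis was also higher, with 16 of 19 genes higher in 6 of 6 libraries and 0 lower in 6 of 6. Paics, an enzyme of purine synthesis, stood between 78.0 and 109 CPM in cycling and between 43.4 and 65.6 in non-cycling macrophages. Impdh2, which makes the precursor of guanine nucleotides, stood between 72.3 and 109.5 CPM, against 43.9 to 67.5. Genes of glycolysis went the other way: 15 of 15 were lower in cycling macrophages in 6 of 6 libraries, with library medians between -0.43 and -0.22 on the log2 scale. Pgk1, a glycolytic kinase, stood between 319 and 652 CPM in cycling and between 374.5 and 900.5 in non-cycling cells.

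Cycling macrophages held less RNA of several mature macrophage functions in CPM scaled by TMM factors. Of 12 identity genes 11 were lower in 6 of 6 libraries and 0 higher, with library medians between -0.41 and -0.27. Apoe, the lipid carrier, had 12298 CPM in intact KO, 18585 in KO-to-KO, 27650 in KO-to-WT, 31877 in WT-to-KO, 26094 in WT-to-WT and 24299 in intact WT cycling cells, and between 23083 and 49261 in non-cycling ones. Within each library it was lower in cycling cells, by a log2 difference between -0.91 and -0.63. Klf2, a factor of quiescent macrophages, was lower by -1.12 to -0.59. Maf, a factor that restrains self-renewal of macrophages, had differences of both signs, between -0.33 and 0.05.

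Antigen presentation was lower as well. Of the 8 MHC class II genes 7 were lower in cycling macrophages in 6 of 6 libraries, with library medians of -0.41 in intact KO, -0.29 in KO-to-KO, -0.59 in KO-to-WT, -0.58 in WT-to-KO, -0.68 in WT-to-WT and -0.55 in intact WT. The 2 libraries in which host and marrow both lacked Mtdh had the smallest differences. Of 16 genes of MHC class I and peptide loading 10 were lower and 2 higher in 6 of 6, and of 29 interferon response genes 18 were lower and 0 higher. Isg15, a ubiquitin-like protein induced by interferon, was lower by -1.14 to -0.30. Of 14 genes that tissue digestion is known to induce, among them Fos, Junb and Jund, 12 were lower and 0 higher, so cycling cells carried less of this signal in the same libraries.

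Outside the lists, Fbxo32, a ubiquitin ligase known from wasting muscle, was among those whose smallest downward difference over the 6 libraries was largest, at 12.3 to 55.9 CPM in cycling and 33.2 to 136 in non-cycling macrophages. Mmp12, the macrophage elastase, stood between 64.3 and 147 CPM, against 113 to 246. Vegfa, the angiogenic factor, had 196 CPM in intact KO, 265 in KO-to-KO, 249 in KO-to-WT, 236 in WT-to-KO, 230.5 in WT-to-WT and 55.3 in intact WT cycling cells. In non-cycling cells it stood at 113 CPM in intact WT and between 339 and 437 in the other 5 libraries. Intact WT was again the lowest library in both classes. Bnip3, a mitophagy receptor that hypoxia induces, was lower in cycling cells by -0.92 to -0.65. Of 13 monocyte genes 2 were higher in 6 of 6 libraries and 4 were lower, with a median of -0.08. The 2 higher ones were the chemokine receptors Ccr2 and Cx3cr1, with differences between 0.02 and 0.31 for Ccr2 and between 0.02 and 0.21 for Cx3cr1, and among the 4 lower ones was Thbs1, which encodes thrombospondin 1, by -0.73 to -0.40.

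These directions depend in part on the scaling. Scaled by total UMIs with no factor, 3874 of the 12741 genes were higher and 1348 lower in 6 of 6 libraries, against 2285 higher and 3036 lower with TMM factors. The median difference over all genes was 0.03 with no factor and -0.02 with TMM factors, on the log2 scale. All 41 mitosis, 34 S phase and 15 repair genes kept their direction, but lower counts shrank to 7 of 12 for identity, 5 of 8 for MHC class II, 14 of 15 for glycolysis, 13 of 29 for interferon and 9 of 14 for digestion genes. For MHC class I and peptide loading the count was then 6 lower and 5 higher.

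Members were found in every library among cells with each state gene described here, at unequal rates. Not every state gene gave this: of 14 cells with a Ly6c2 UMI in KO-to-WT, 0% were cycling. State genes were scored after thinning each cell to 5000 UMIs, while cycling was called on all of its UMIs as by the rule. The cycling call was thus not made at equal depth. Cells with an Fcrls UMI, a gene of resident-type macrophages, were cycling more often than cells without an Fcrls UMI in 6 of 6 libraries. The percent cycling was 16.2 with and 12.1 without Fcrls in intact KO, 11 and 10.2 in KO-to-KO, 6.33 and 3.32 in KO-to-WT, 9.61 and 4.24 in WT-to-KO, 9.37 and 7.2 in WT-to-WT, and 16.5 and 9.92 in intact WT. Cells with Mrc1, the mannose receptor, also cycled more often in 6 of 6, from 6.03% with and 4.07% without in KO-to-WT to 16.1% and 13.6% in intact WT. F13a1, another resident-type gene, gave differences of both signs, with 13.5% of cells with and 13.7% of cells without it cycling in intact KO, 9.98% and 10.6% in KO-to-KO, 5.97% and 5.22% in KO-to-WT, 9.73% and 7.27% in WT-to-KO, 9.11% and 8.94% in WT-to-WT, and 16.0% and 15.4% in intact WT. Lyve1, of the same list, was found in 3 to 128 cells per library and its differences had both signs too. So resident-type genes did not all go 1 way. Cells with Trem2, a lipid-sensing receptor, cycled less often in 6 of 6, with 12.9% against 20.1% in intact KO and 15.5% against 22.3% in intact WT. Cells with Cd274, which encodes the checkpoint ligand PD-L1, cycled less often in 6 of 6 too, with 11.7% against 15.9% in intact KO and 13.2% against 16.5% in intact WT. These rates are a description and were not tested.

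Between host genotypes, 0 of 11566 genes passed in cycling macrophages (0.0%, edgeR quasi-likelihood test on UMIs summed per library with terms for transplantation and marrow, adjusted p under 0.05). At an unadjusted p under 0.05 there were 593, and DESeq2 called 67. Between marrow genotypes 1 gene passed (0.00865%), Mtdh itself, with a log2 fold change of -2.68 ± 0.14 (SE, edgeR adjusted p = 0.00433), while DESeq2 called 31. With 1 library per group, the error in these fits is the departure from a sum of a host and a marrow effect. It holds any host difference that changes with the marrow in transplanted mice. It also holds any gap between the intact pair and the summed effects. A gene raised only where both sides were KO therefore adds to this error. The p-values measure only the spread between these libraries. Without the WT-to-KO library edgeR called 94 genes for the host and 0 for the marrow, and without KO-to-WT it called 0 for the host and 164 for the marrow. Without WT-to-KO the transplanted host pair left is KO-to-KO against KO-to-WT. Without KO-to-WT the transplanted marrow pair left is KO-to-KO against WT-to-KO. In each case the term with calls was the one whose transplanted pair held KO-to-KO. Every other library left out moved the counts as well, to between 3 and 22 genes for the host and between 4 and 15 for the marrow.

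Of the genes named for the largest smallest difference over the 3 pairs, Ly6a, Spp1 and Dcstamp are given here. In each of them intact KO and KO-to-KO stood apart from the other 4 libraries. Ly6a, the interferon-induced surface protein Sca-1, had 528 CPM in intact KO, 1015 in KO-to-KO, 34.5 in KO-to-WT, 75.9 in WT-to-KO, 6.64 in WT-to-WT and 15.0 in intact WT. Both libraries with KO on both sides stood far above, and the other 4 were low. Its host log2 fold change of 3.68 ± 0.67 did not pass (SE, edgeR adjusted p = 0.854). Spp1, osteopontin, ran in the opposite direction, at 1160 CPM in intact KO, 977 in KO-to-KO, 1986 in KO-to-WT, 1790 in WT-to-KO, 2870 in WT-to-WT and 2209 in intact WT, with a host change of -0.69 ± 0.15 that did not pass either (edgeR adjusted p = 0.854). Dcstamp, a fusion protein of macrophages, had the largest smallest pair difference upward with KO marrow after Cxcl9 and Ly6a, at 364 CPM in intact KO, 194 in KO-to-KO, 83.8 in KO-to-WT, 45.5 in WT-to-KO, 29.9 in WT-to-WT and 85.2 in intact WT. Its marrow change of 1.66 ± 0.19 did not pass (edgeR adjusted p = 0.409).

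A both-KO term, for intact KO and KO-to-KO against the rest, chosen because earlier results of these data showed those 2 libraries apart, called 1632 of 11566 genes in cycling macrophages (14.1%), 938 higher (8.11%) and 694 lower (6.0%). The p-values take no account of this choice. Genes of antigen presentation and of the interferon response were higher in cycling macrophages of intact KO and KO-to-KO tumours than in those of the other 4, and resident-type genes were lower. All 16 genes of MHC class I and peptide loading rose, with a median log2 fold change of 1.57, as did 7 of 8 MHC class II genes (median 2.24) and 18 of 29 interferon genes (median 2.44), and 0 genes of these lists fell. Of 14 resident-type genes 10 fell and 0 rose, with a median of -1.64. The median over all 11566 genes was -0.03.

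H2-Ab1 (chromosome 17, 34257689 to 34269419, plus strand), the beta chain of I-A, had 6620 CPM in intact KO, 9058 in KO-to-KO, 1619 in KO-to-WT, 2144 in WT-to-KO, 793 in WT-to-WT and 1255 in intact WT. Its log2 fold change was 2.52 ± 0.45 (SE, edgeR adjusted p = 0.0444). H2-Eb1, whose promoter is shown above, had the same order of libraries, with 6179 CPM in intact KO, 7447 in KO-to-KO and 554 to 1726 in the other 4, and narrowly missed the threshold at 2.60 ± 0.52 (edgeR adjusted p = 0.0621). Ciita, the master regulator of MHC class II transcription, rose by 2.17 ± 0.44 (edgeR adjusted p = 0.0452). It had 54.9 CPM in intact KO and 57.5 in KO-to-KO, against 4.33 to 16.0 in the other 4.

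For class I, H2-K1 had 1731 CPM in intact KO, 2723 in KO-to-KO, 826 in KO-to-WT, 935 in WT-to-KO, 682 in WT-to-WT and 571 in intact WT, a log2 fold change of 1.70 ± 0.12 (edgeR adjusted p = 9.55e-05). Tap1, which carries peptides into the endoplasmic reticulum, rose by 2.28 ± 0.15 (edgeR adjusted p = 9.55e-05). Nlrc5, the class I counterpart of Ciita, had 53.8 CPM in intact KO and 27.6 in KO-to-KO, against 4.19 to 15.4 in the other 4. Intact KO and KO-to-KO did not overlap with the other libraries for any of the 16 genes, a pattern that 11.7% of all genes tested showed upward.

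Among interferon genes, Gbp2, a guanylate-binding protein, had 252 CPM in intact KO, 446 in KO-to-KO, 25.0 in KO-to-WT, 39.6 in WT-to-KO, 18.6 in WT-to-WT and 24.1 in intact WT, with a log2 fold change of 3.75 ± 0.32 (edgeR adjusted p = 0.00465). Cxcl9, the chemokine that draws T cells through Cxcr3, had 1596 CPM in intact KO, 2260 in KO-to-KO, 73.6 in KO-to-WT, 142 in WT-to-KO, 18.1 in WT-to-WT and 132 in intact WT. Its libraries did not overlap either, but the spread among the other 4 was wide and its 4.38 ± 0.92 did not pass (edgeR adjusted p = 0.0739). Cxcl10, with the same receptor, did, at 3.0 ± 0.42 (edgeR adjusted p = 0.0237).

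Effector and checkpoint genes followed. Nos2 (chromosome 11, 78920787 to 78960254, plus strand), the inducible nitric oxide synthase, had 54.9 CPM in intact KO and 54.3 in KO-to-KO, against 1.94 to 5.63 in the other 4, and it rose by 4.16 ± 0.28 (edgeR adjusted p = 0.000233). Acod1, which makes itaconate, rose by 4.76 ± 0.38 (edgeR adjusted p = 0.00231). Cd274 (chromosome 19, 29367455 to 29388095, plus strand) had 165 CPM in intact KO, 108 in KO-to-KO, 32.3 in KO-to-WT, 30.2 in WT-to-KO, 26.7 in WT-to-WT and 33.9 in intact WT, a rise of 2.07 ± 0.12 (edgeR adjusted p = 4.19e-05). Pdcd1lg2, which encodes PD-L2, rose by 4.35 ± 0.21 (edgeR adjusted p = 3.71e-05), at 21.9 CPM in intact KO and 25.3 in KO-to-KO, against 1.0 to 1.59 in the other 4. The cycling cells of both libraries thus carried more RNA of both ligands of the T cell receptor PD-1.

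Genes of the T cell and NK cell lists stood higher in the same 2 libraries, although each member held 0 Cd3 UMIs by the rule. Whether this RNA came from the macrophages or from other cells was not tested. The 11 T cell genes summed to 96.7 CPM in intact KO and 101 in KO-to-KO, against 13.8 to 37.9 in the other 4, and the 7 NK cell genes to 14.5 and 20.3, against 1.29 to 2.29. At least 2 T cell UMIs were held by 12.4% of thinned members in intact KO and 10.4% in KO-to-KO, against 0.571% to 3.52% in the other 4. Non-cycling macrophages held them in 13.9% of cells in intact KO and 16.2% in KO-to-KO, against 1.48% to 5.24% in the other 4. A stricter gate left out cells that held at least 2 UMIs of the tumour or mesenchymal, T cell, B cell or neutrophil list. It left 44 to 295 members per library. The NK cell, dendritic, mast and erythroid lists were not used in it. The both-KO term then called 715 genes, of which 601 were among the 1632. The 1 NK cell gene tested still passed, with a log2 fold change of 4.63. Below, the cells left out are called cells holding UMIs of other cell types. With these cells left out, 16 of 16 MHC class I genes (median 1.41), 18 of 29 interferon genes (median 2.20), 4 of 8 MHC class II genes (median 2.40) and 8 of 14 resident-type genes (median -0.93) passed.

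Leaving out 1 library changed the calls. With the transplantation term, leaving out either intact library leaves the same contrast, KO-to-KO against the other transplanted libraries. Leaving out KO-to-KO leaves intact KO against intact WT. For these fits only medians are used here. Without KO-to-WT or WT-to-KO 3 of 8 class II genes passed, and without WT-to-WT 8. When KO-to-WT, WT-to-KO or WT-to-WT was left out, interferon counts lay between 17 and 23 of 29. MHC class I counts were then 15 or 16 of 16, and resident-type counts 10 of 14. With any 1 library left out, the class II median lay between 2.05 and 2.43 and the interferon median between 2.26 and 2.61. The medians of these 4 lists kept their sign in all of these fits. Without the term for transplantation 154 genes passed in all, with 8 of 16 for class I, 4 of 8 for class II, 9 of 29 for interferon, 9 of 14 for resident-type genes and 1 of 15 for glycolysis.

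**Figure D3:**
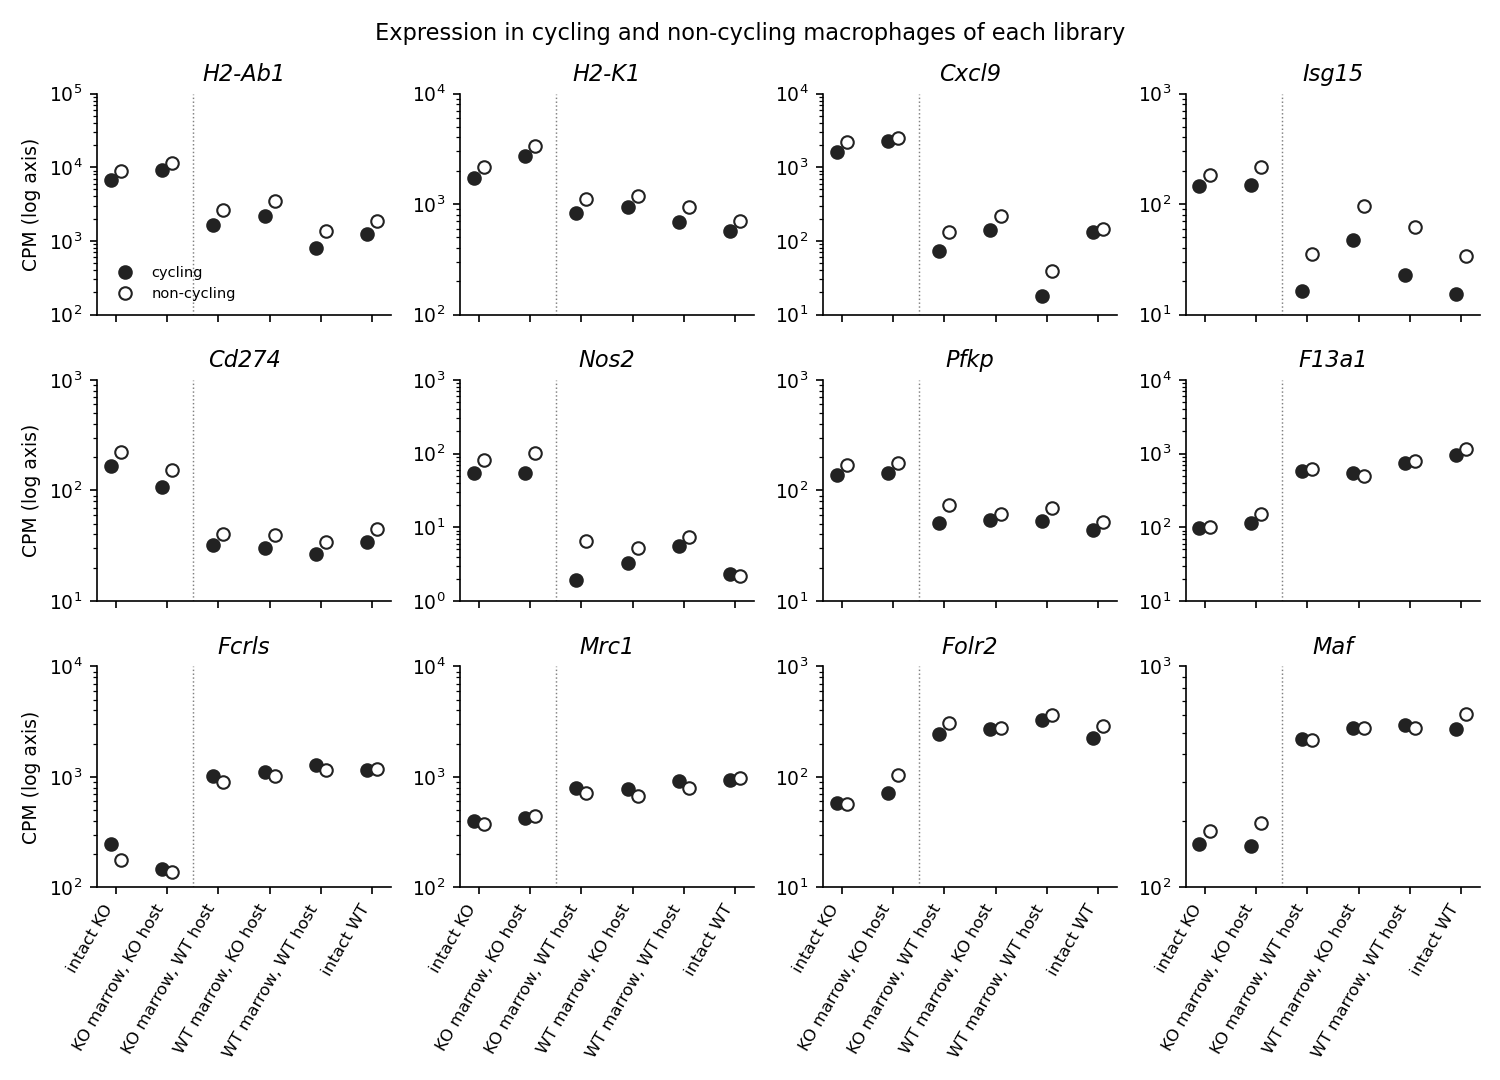
Levels of 12 genes in cycling (filled) and non-cycling (open) macrophages of each library, in CPM on log axes, with intact KO and KO-to-KO left of the dotted line. In cycling cells Cd274, Nos2 and H2-Ab1 lie higher in intact KO and KO-to-KO than in the other 4 libraries, and F13a1, Fcrls and Maf lie lower.

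Resident-type macrophage genes fell in intact KO and KO-to-KO, 10 of 14 as given above. F13a1 (chromosome 13, 36867178 to 37050244, minus strand), the A subunit of coagulation factor XIII, had 98.1 CPM in intact KO, 116 in KO-to-KO, 581 in KO-to-WT, 550.5 in WT-to-KO, 758 in WT-to-WT and 958 in intact WT. It fell by 2.77 ± 0.25 on the log2 scale (SE, edgeR adjusted p = 0.00233). Fcrls, an Fc receptor-like gene of microglia and other resident macrophages in the mouse, had 249.5 CPM in intact KO and 148 in KO-to-KO, against 1021 to 1287 in the other 4, and fell by 2.62 ± 0.20 (edgeR adjusted p = 0.000577). Folr2, the folate receptor of perivascular macrophages, fell by 1.95 ± 0.13 (edgeR adjusted p = 6.19e-05), Mrc1 by 1.05 ± 0.11 (edgeR adjusted p = 0.000405) and Pf4 by 1.16 ± 0.11. Lyve1, another gene of the list, was low everywhere, at 4.83 to 32.5 CPM, and did not pass. Ccl8, a chemokine of the list, stood in the opposite order, at 317 CPM in intact KO and 1097 in KO-to-KO, against 52.1 to 162 in the other 4, and did not pass either (2.78 ± 0.72, edgeR adjusted p = 0.106).

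Of the 14 genes that tissue digestion is known to induce, 5 fell in the same 2 libraries and 1 rose (median -0.27). Fos, a subunit of the AP-1 factor, had 968 CPM in intact KO and 1161 in KO-to-KO, against 1548 to 2494 in the other 4, and fell by 0.79 ± 0.14 on the log2 scale (SE, edgeR adjusted p = 0.00831). Jun, its partner, fell by 1.28 ± 0.22 (edgeR adjusted p = 0.0140), and Egr1 was the gene that rose, by 0.83 ± 0.15 (edgeR adjusted p = 0.0088). Without KO-to-KO, which leaves intact KO against intact WT, the median of these genes was 0.19. Without intact KO, which leaves KO-to-KO against the other transplanted libraries, it was -0.58. The part of tissue handling in the both-KO differences was not tested.

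Maf, the factor that drives much of the resident-type program, had 158 CPM in intact KO, 154 in KO-to-KO, 470.1 in KO-to-WT, 525 in WT-to-KO, 544 in WT-to-WT and 521 in intact WT. The 4 other libraries lay close together and far above both, and the fall was 1.72 ± 0.10 (SE, edgeR adjusted p = 4.19e-05). Apoe fell by 0.75 ± 0.11 (edgeR adjusted p = 0.00284) and Igf1, a growth factor that macrophages secrete, by 1.70 ± 0.28 (edgeR adjusted p = 0.00871). Spp1 fell by 1.06 ± 0.22 under this term (edgeR adjusted p = 0.0299).

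Among metabolic genes, 10 of 15 glycolysis genes rose and 0 fell (median 0.50). Pfkp, a phosphofructokinase, had 139 CPM in intact KO, 144 in KO-to-KO, 51.0 in KO-to-WT, 54.0 in WT-to-KO, 53.4 in WT-to-WT and 44.0 in intact WT, a log2 fold change of 1.55 ± 0.09 (edgeR adjusted p = 4.19e-05). Slc16a3, the lactate exporter, rose by 0.97 ± 0.20 (edgeR adjusted p = 0.0257). Of 17 genes of cholesterol synthesis 3 rose and 0 fell, and of 20 genes of fatty acid and lipid handling 2 rose and 1 fell. Mixed lists included suppressive and tumour-associated genes, with 4 up and 4 down of 16, and genes of growth factor receptors and regulators, with 4 up and 2 down of 18, among them Csf2rb, the shared receptor chain for GM-CSF, up by 0.84 ± 0.16 (edgeR adjusted p = 0.0118). Csf1r missed the threshold, at -0.27 ± 0.09 (edgeR adjusted p = 0.067).

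Values of the division genes themselves depended on the libraries compared. With all 6 libraries, of 41 mitosis genes 1 rose, Cdca3 (0.46 ± 0.12, edgeR adjusted p = 0.0321), and 1 fell, Pbk (-0.61 ± 0.14, edgeR adjusted p = 0.0194), with a list median of 0.14. Of 34 S phase genes 1 rose, the flap endonuclease Fen1 (0.52 ± 0.12, edgeR adjusted p = 0.0213), and 0 of 15 repair genes passed. Among 21 histone and chromatin genes 3 rose and 3 fell, including Hist1h1c, which fell by 1.2 ± 0.20 (edgeR adjusted p = 0.00933). Of 25 genes of cyclins, E2F factors and inhibitors 1 rose and 2 fell (median 0.005). Ccnd2, cyclin D2, was the gene that rose, by 0.90 ± 0.16 (edgeR adjusted p = 0.00831). Its level was 104 CPM in intact KO, 179 in KO-to-KO, 79.0 in KO-to-WT, 119 in WT-to-KO, 87.2 in WT-to-WT and 57.1 in intact WT. WT-to-KO lay above intact KO, so the groups overlapped for this gene. With the transplantation term, leaving out either intact library leaves the same contrast, KO-to-KO against the other transplanted libraries. In both of these fits the mitosis median was 0.37 and the histone and chromatin median 0.27. Leaving out KO-to-KO leaves intact KO against intact WT, with a mitosis median of -0.19 and an S phase median of -0.10. The direction for division genes thus differed between the intact pair and the transplanted libraries.

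Whether the KO differences were unlike those in resting macrophages was tested in 1 model of cycling and non-cycling sums. For both sides KO, 73 of 13527 genes passed (0.54%, edgeR), 31 with a difference that was more positive in cycling cells (0.229%) and 42 with one that was more negative (0.31%), while DESeq2 called 13. For the host term 14 passed (0.103%), 12 more positive (0.0887%) and 2 more negative (0.0148%). For the marrow term 19 passed (0.14%), 7 more positive (0.0517%) and 12 more negative (0.0887%), while DESeq2 called 0 for each term. For the other genes a difference between dividing and resting cells did not pass, which does not show that they are alike.

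MHC class II had 5 of its 8 genes among those calls, all more positive in cycling cells. For H2-Ab1 the both-KO difference in mean log2 CPM (10 CPM added) was 2.5 in cycling and 2.21 in non-cycling macrophages, and the interaction was 0.28 ± 0.05 (SE, edgeR adjusted p = 0.00113). H2-Eb1 gave 0.31 ± 0.05 (edgeR adjusted p = 0.00102), H2-DMb1, which edits the peptides of class II, 0.38 ± 0.06 (edgeR adjusted p = 0.000165) and Cd74, the invariant chain, 0.26 ± 0.05 (edgeR adjusted p = 0.00319). The median interaction over the 8 genes was 0.28. Without KO-to-KO, which leaves intact KO against intact WT, the median was 0.14. The calls depended on the setting. With members from 2 UMIs of Mki67 and Top2a (median 0.17) or a C1q share of at least 2% (-0.09), 0 of 8 genes passed. Without cells holding UMIs of other cell types (0.27), 0 of 8 passed too. With members from 5 UMIs 1 gene passed (0.29), from 10 UMIs 2 (0.26), and DESeq2 called 3 (0.31). The median thus turned at the higher C1q share and was about as large as with all members in the last 4 of these settings, where fewer genes passed.

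Isg15 had the smallest adjusted p of the genes of the interferon list. In cycling cells its level was 146 CPM in intact KO, 149 in KO-to-KO, 16.3 in KO-to-WT, 47.3 in WT-to-KO, 22.7 in WT-to-WT and 15.3 in intact WT, and in non-cycling cells at 183 in intact KO, 216 in KO-to-KO and 33.6 to 96.9 in the other 4. Its interaction was 0.71 ± 0.08 (edgeR adjusted p = 1.68e-06), since the gap between cycling and non-cycling cells was wider in the 4 other libraries. Among cycle genes, Tubb5, a tubulin, was 0.41 ± 0.06 (edgeR adjusted p = 0.000117) and Cenpf, a centromere protein, 0.79 ± 0.18 (edgeR adjusted p = 0.0223), both more positive in cycling cells. Bub1b, a spindle checkpoint kinase, was -0.85 ± 0.16 (edgeR adjusted p = 0.00152) and Aurka, a spindle kinase, -0.86 ± 0.21 (edgeR adjusted p = 0.0282). Cenpf, Bub1b and Aurka were low in non-cycling cells, at 1.18 to 7.72 CPM, so these 3 values rest on small counts there.

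For the host term, Rsad2, the antiviral protein viperin, gave an interaction of 1.16 ± 0.17 (edgeR adjusted p = 8.39e-06) and Ccl17, a chemokine for Ccr4, 2.05 ± 0.31 (edgeR adjusted p = 8.39e-06). For the marrow term, Itgax, the integrin CD11c, gave 0.62 ± 0.10 (edgeR adjusted p = 7.49e-06) and Ly6c2, a monocyte gene, -2.98 ± 0.39 (edgeR adjusted p = 4.1e-08). Ly6c2 was close to 0 in the members, at 0.306 to 10.2 CPM, and its sign was opposite without cells holding UMIs of other cell types. Igkc, an immunoglobulin chain that macrophages do not make, was also among the called genes of both terms, beside B cell gene sums of 5.90 to 83.7 CPM in the members, and the part of B cell RNA in these calls was not tested.

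**Figure D4:**
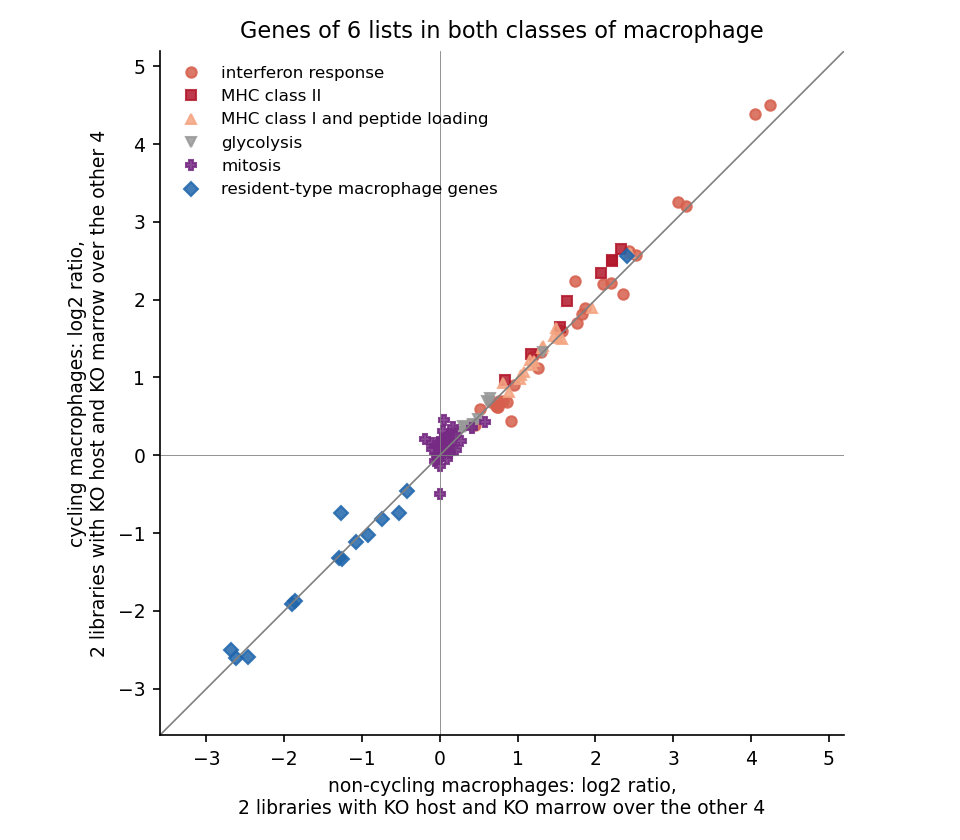
Each point is a gene of 1 of 6 lists, placed by its both-KO difference in cycling macrophages (y axis) and in non-cycling macrophages (x axis), as differences of mean log2 CPM with 10 CPM added between the 2 libraries with both sides KO and the other 4. Points lie near the line of equal values, with H2-Ab1 at 2.5 in cycling and 2.21 in non-cycling cells.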

How the data were processed

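Single-cell RNA was counted as UMIs per gene and barcode in 6 libraries, 1 per group. Per the file headers, the deposited counts came from Cell Ranger 7.0.1 for the 2 intact libraries (32285 genes listed) and 6.1.1 for the 4 transplanted ones (31053 genes). Seurat and the build mm10 stand in the submitters' processing notes. The treatment of intronic reads is not given in the sources used. The 30406 gene IDs common to both versions were used. The members and gene lists were chosen with earlier results of these data known.

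From the deposited counts, UMIs of cycling and of non-cycling macrophages were summed per library. Genes were tested with edgeR 4.0.16 (quasi-likelihood, robust, TMM factors, filterByExpr, Benjamini-Hochberg adjusted p under 0.05) in R 4.3.3. Host and marrow were fitted together with a term for transplantation (2 residual degrees of freedom), and the both-KO term with the same term (3). Interactions used the 12 sums with the library as a block. The 8 genes of the rule were not tested. DESeq2 1.42.0 was an alternative. Levels are CPM with TMM factors, and log2 differences add 10 CPM. Sums of other cell types' markers are CPM with no factor. Cells were thinned to 5000 UMIs where stated, with a fixed seed, in Python 3.11.15. The edgeR fits were tested on simulated data. Scrublet in scanpy 1.11.5 gave no usable threshold, so doublets were not removed in the main result. An alternative left out the 6% of barcodes per library with the highest scores. Libraries are the units, and the numbers of cells per library set the counting intervals.

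Genes were named by a fixed rule: up to 10 per direction past the threshold with the largest fold change, at least 10 CPM and no overlap or 1 sign in all pairs, filled to 5 with the largest smallest difference over pairs where fewer passed. The rule also takes the 4 highest members of each list and any member that passed, 10 genes per direction with the largest smallest difference over libraries between cycling and non-cycling cells, up to 5 per direction in the interactions, and a few state genes. Cdk1, Rrm2, Mcm6, Hist1h1b, Ccna2, Cdkn2c and Cdkn2d, and other list members given for their known roles that the rule does not take, were chosen after their values were seen.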

Additional observations from a re-analysis of the deposited data

Results flagged for a closer look

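For 14 genes under the host term, 19 under the marrow term and 73 under the both-KO term, the difference between KO and WT differed between cycling and non-cycling macrophages (interaction tests, edgeR adjusted p under 0.05). DESeq2 called 0, 0 and 13 genes for these 3 terms.

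The cycling share gave a log2 ratio of KO over WT of -0.22 in the intact pair and of 0.79 in the pair of KO and WT hosts with KO marrow. These pairs point in opposite directions, and the difference between them was not tested.

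Barcodes with a C1q share of at least 1% that also held Cd3 UMIs were no members, and signals of division appeared in them too. Of these 1980 barcodes 326 held at least 3 UMIs of Mki67 and Top2a. The share was 20.6% in intact KO, 17.3% in KO-to-KO, 6.11% in KO-to-WT, 12.4% in WT-to-KO, 12.9% in WT-to-WT and 23.2% in intact WT. It was above the cycling share of the macrophages of the same library in all 6.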

How the results depend on the processing

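No paired analysis was possible because each group has 1 library and the labels carry no replicate numbers that could be used as a block. For the share, the mean host log2 ratio was 0.79 at a C1q share of at least 2% (3 of 3 pairs above 0), -0.0363 without cells holding UMIs of other cell types and between -0.16 and 0.58 with 1 library left out. The marrow ratio was 0.15 at a C1q share of at least 2% and between -0.52 and 0.11 with 1 library left out. Host genes numbered 67 with DESeq2, 11 with no filter, 23 at a C1q share of 2%, 1 without cells holding UMIs of other types, and 0 to 94 with 1 library left out. Marrow genes numbered 31 with DESeq2, 7 with no filter, 0 without the transplantation term, 0 at a C1q share of 0.5%, 49 at 2%, and 0 to 164 with 1 library left out. Both-KO genes numbered 154 without the transplantation term, 310 at a C1q share of 2%, 715 without cells holding UMIs of other types, and 1028 (without WT-to-KO) to 1929 with 1 library left out.

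Host interactions numbered 0 with DESeq2, 26 with no filter, 1 and 41 at C1q shares of 0.5% and 2%, 2 without the highest Scrublet scores, 41 from 10 UMIs of Mki67 and Top2a, 0 with cells holding Cd3 UMIs, and 33 to 53 with 1 library left out. Marrow interactions numbered 0 with DESeq2, 8 at a C1q share of 0.5%, 2 without the highest Scrublet scores, 7 without cells holding UMIs of other types, 3 with cells holding Cd3 UMIs, and 30 to 54 with 1 library left out. Both-KO interactions numbered 13 with DESeq2, 209 with no filter, 47 from 2 UMIs, 2 at a C1q share of 2%, 23 without cells holding UMIs of other types, and 90 to 126 with 1 library left out. The cause of these changes was not tested. The settings with 10 UMIs and with Cd3 UMIs were chosen after seeing the data.

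Among the values of named genes under the alternatives, signs turned in 1 value of the marrow comparison and otherwise only in the interactions. For the host interactions 42 values kept their sign and their side of the threshold, 68 lost the call and 6 turned. For the marrow interactions 72 kept both, 87 lost the call and 9 turned. At a C1q share of 0.5% the marrow change of Chil3 was 0.0136, the host interaction of Igkc 0.47 and its marrow interaction -1.14. At 2%, host interactions were -0.69 for Rsad2 and 0.49 for Igkc, and marrow interactions were -0.24 for Igkc, 4.08 for Pard3b, 0.71 for Cd24a and 0.43 for Gpnmb. From 2 UMIs, Igkc gave 0.15 for the host and -0.23 for the marrow. From 10 UMIs, the host interaction of Il10 was 0.29. Without cells holding UMIs of other types, the host interaction of Fbln2 was -0.0645, the marrow interactions of G0s2, Ly6c2 and Gpnmb were -0.16, 1.2 and 0.89, and the both-KO interactions of Ifit3b and Gpnmb were -0.28 and 0.18. Of the values of named genes in the both-KO comparison under the alternatives, 313 kept their side of the threshold, 46 lost the call and 0 turned.

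With 1 library per group, differences between mice and between libraries cannot be told apart, and transplantation cannot be told apart from the software version. Members rest on 165 to 708 cells per library, so genes near 0 CPM carry wide error.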
